A study of Mus musculus with 8 samples.

Results

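The transcripts described here encode the handling of fatty acids in muscle, from their uptake and release from stored fat to their oxidation in mitochondria. The list named 30 genes, and a gene was measured where the array annotation gave a transcript cluster (the array's unit of measurement, a set of probes for 1 transcript region) to that symbol alone. The cluster with the highest mean over the 8 arrays was used for each gene. That left 28 of the 30 genes, out of 19938 genes measured in the same way. Cpt1b, the muscle form of the outer carnitine palmitoyltransferase, lay on a cluster annotated to several genes and was not used, and Acsl1, an acyl-CoA synthetase, was not analysed here.

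Gastrocnemius, a mixed calf muscle, came from 6-month-old male mice on chow diet that had been fasted for 5 h. The 4 knockout animals (Gcn5skm-/-) carried the HSAcre transgene and 2 floxed Gcn5 alleles (HSAcre Tg/0, Gcn5 L2/L2). The 4 wild-type animals (Gcn5skm+/+) carried the same floxed alleles without the transgene (HSAcre 0/0, Gcn5 L2/L2). The human skeletal actin promoter drives Cre in muscle fibres, so other cells of the muscle keep the gene, and effects of Cre itself and of the deletion cannot be told apart. Each animal gave 1 Affymetrix array, and values are log2 intensities after RMA (background correction, quantile normalization and summary over probes).

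Long-chain fatty acids reach a muscle fibre from circulating triacylglycerol, which lipoprotein lipase cleaves at the capillary wall, or from droplets stored inside the fibre, which lipases open from within. They are activated to acyl-CoA, pass into mitochondria as carnitine esters, and are shortened there by a repeated cycle of dehydrogenation, hydration, a further dehydrogenation and thiolysis, with electrons passed on through the electron transfer flavoprotein. Slow, oxidative fibres rely on this pathway more than fast fibres do, and Gcn5 is a lysine acetyltransferase that is known to acetylate the coactivator PGC-1alpha, a regulator of mitochondrial genes.

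The stretches upstream of 5 members are shown. Fabp3 was among the members that differed most between animals, and Cpt1a was the only member whose genotypes did not overlap. Acadm and Ucp3 are textbook targets of fatty acid-sensing nuclear receptors, and Hadha and Hadhb start from 1 shared region. Each run is the 250 bases before the annotated start, 5′ to 3′ on the gene's strand, from the RefSeq promoter table of GRCm38.p6. Fabp3 lies at chr4:130308488-130308737 (plus strand), Cpt1a at chr19:3323051-3323300 (plus strand), Acadm at chr3:153944644-153944893 (minus strand), Ucp3 at chr7:100472741-100472990 (plus strand) and Hadhb at chr5:30155003-30155252 (plus strand). Capitals mark the nuclear receptor half-site AGGTCA on either strand.
Fabp3: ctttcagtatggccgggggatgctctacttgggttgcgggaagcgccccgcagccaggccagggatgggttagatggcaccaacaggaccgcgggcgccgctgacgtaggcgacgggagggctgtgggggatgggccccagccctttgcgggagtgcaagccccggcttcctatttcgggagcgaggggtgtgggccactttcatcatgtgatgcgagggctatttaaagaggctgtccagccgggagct
Cpt1a: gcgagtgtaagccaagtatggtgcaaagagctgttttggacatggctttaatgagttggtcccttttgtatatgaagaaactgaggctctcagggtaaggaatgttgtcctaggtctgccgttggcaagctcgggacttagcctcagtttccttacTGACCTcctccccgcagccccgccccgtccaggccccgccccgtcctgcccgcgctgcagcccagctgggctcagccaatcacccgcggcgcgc
Acadm: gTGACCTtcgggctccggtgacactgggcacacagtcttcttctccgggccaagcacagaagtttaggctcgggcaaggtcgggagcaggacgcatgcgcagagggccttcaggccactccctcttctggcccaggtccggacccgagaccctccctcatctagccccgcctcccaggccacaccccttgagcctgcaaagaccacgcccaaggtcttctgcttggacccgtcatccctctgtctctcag
Ucp3: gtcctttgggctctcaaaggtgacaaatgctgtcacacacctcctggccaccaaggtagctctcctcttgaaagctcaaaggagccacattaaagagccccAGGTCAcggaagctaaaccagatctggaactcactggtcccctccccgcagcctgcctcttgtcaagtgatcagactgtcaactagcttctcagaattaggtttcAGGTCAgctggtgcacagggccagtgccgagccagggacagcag
Hadhb: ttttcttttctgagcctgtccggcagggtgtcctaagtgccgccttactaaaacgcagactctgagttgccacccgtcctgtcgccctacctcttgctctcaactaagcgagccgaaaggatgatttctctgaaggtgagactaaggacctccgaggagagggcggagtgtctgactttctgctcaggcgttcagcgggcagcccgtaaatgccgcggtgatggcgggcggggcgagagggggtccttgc
The table held 28 promoters of 24 of the 28 members. The half-site AGGTCA, searched on both strands, was present upstream of 5 of them, with its base farthest from the start 249 bases upstream in Acadm, 228 in Cd36, 149 and 44 in Ucp3, 94 in Cpt1a and 87 in Acadvl. These 5 were 17.9% of the members' promoters, against 14.0% of all 32851 promoters in the table. The full direct repeat AGGTCANAGGTCA, which holds the half-site 2 times, was found in 0.0335% of all promoters and in 0 of the members', and TNAAGGTCA, the element of the estrogen-related receptors, in 1.14% and in 0. A match of letters is a description of these windows and no measure of binding. The starts of Hadha and Hadhb face away from each other with 272 bases between them, so that the stretch printed for Hadhb shares 228 bases with the one upstream of Hadha.

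The deleted gene, listed on the array as Kat2a, had log2 values of 5.81, 5.84, 5.79 and 5.73 in knockout muscle, against 6.50, 6.46, 6.45 and 6.43 in wild-type muscle. All knockout arrays lay below all wild-type arrays, with a difference of -0.66 (SE 0.08, limma, adjusted p = 0.0319 over all genes). Without any 1 of the 4 knockout animals, or without wild-type animal 3 or 4, 0 genes passed the threshold of 0.05, and the adjusted p of Kat2a reached 0.137. Array medians lay between 4.61 and 4.72, and each array correlated with the others at a mean r of 0.987 to 0.992 across genes. Markers of muscle fibres were high throughout (mean of 10 genes 11.60 to 12.05 in knockout and 11.87 to 12.02 in wild-type arrays). Adipocyte markers averaged 6.62 to 7.44 in knockout and 6.49 to 7.29 in wild-type arrays over the 8 measured of 10 listed genes, with Adipoq between 5.11 and 7.06 in knockout and between 4.89 and 6.59 in wild-type arrays. All 12 macrophage markers averaged higher in knockout muscle, with array means of 5.66 to 6.51 in knockout and 5.48 to 5.65 in wild-type arrays and the highest in knockout animal 4. Ucp1, the defining marker of brown fat, was near the low end of the scale (mean 2.87). None of these markers passed the threshold in limma, and their part in the results below was not tested.

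None of the 28 genes passed the threshold of 0.05 on limma's adjusted p between the genotypes. Of all genes tested, 0.015% passed that threshold (3 of 19938), 0.00502% with a higher value in knockout muscle. The members' adjusted p ranged from 0.861 to 0.994. The estimates were small, from -0.18 for Mgll to 0.23 for Cpt1a on the log2 scale, with a median of 0.07 over the members and of -0.01 over all genes. Values above 0 were estimated for 22 members and below 0 for 6, where 45.3% of all genes were above 0. At an unadjusted p under 0.05 stood 1 member, Cpt1a, and 5.73% of all genes. The median SE of the members was 0.128, and the 95% interval of 27 of the 28 held 0. The lean to positive estimates rested on few animals: without knockout animal 3 the median over the members was -0.00159 with 14 of 28 above 0, without knockout animal 2 it was 0.0104 with 16 above 0, without wild-type animal 1 it was 0.00891 with 15 above 0, and without knockout animal 4 it was 0.148. In bulk muscle, fewer fibres or cells of a type and less RNA per cell cannot be told apart.

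**Figure D1:**
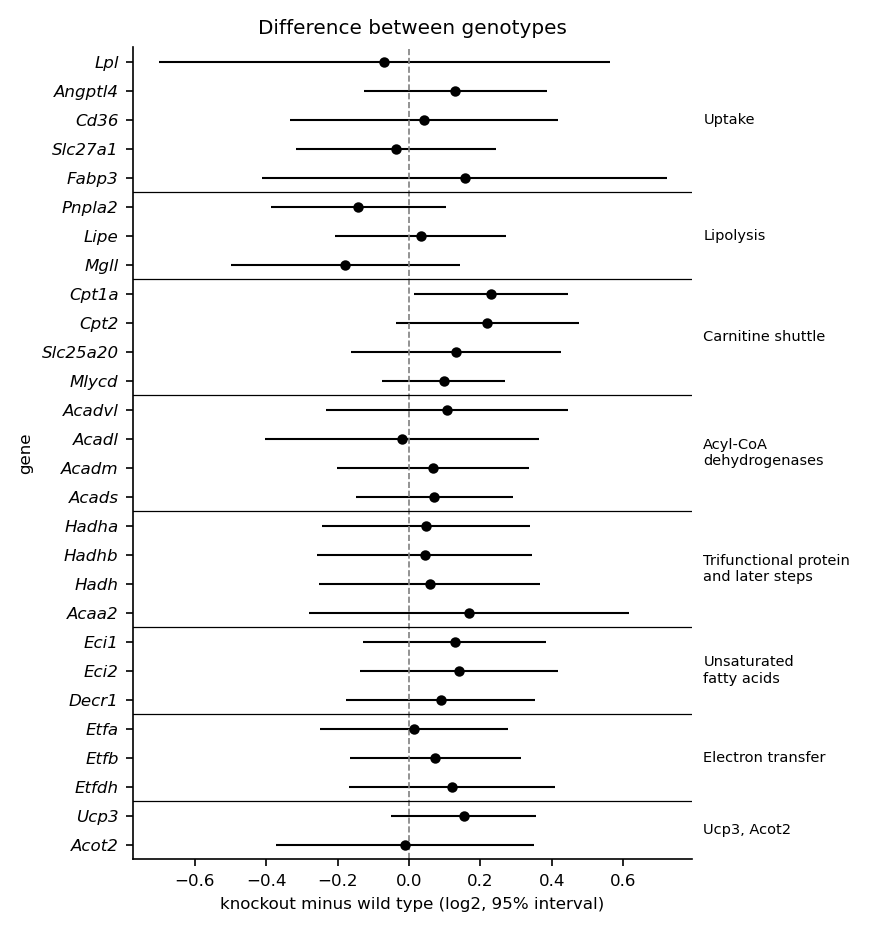
Difference of each of the 28 genes, knockout minus wild type on the log2 scale (horizontal axis), as a point with its 95% confidence interval from limma, grouped by step. The points lie between -0.18 and 0.23, and the interval of Cpt1a alone leaves 0 out before adjustment over genes.

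Uptake came first among the steps. Lipoprotein lipase (Lpl), which frees fatty acids from circulating lipoproteins, had log2 values of 8.73, 9.66, 9.96 and 8.46 in knockout muscle, against 8.82, 9.28, 9.32 and 9.67 in wild-type muscle. The knockout group held both the highest and the lowest array, and the groups overlapped (difference -0.07, SE 0.29, 95% interval -0.70 to 0.56). Fabp3, the fatty acid-binding protein of heart and skeletal muscle, had 9.94, 10.78, 10.96 and 9.57 in knockout muscle, against 9.80, 10.16, 10.31 and 10.36 in wild-type muscle. Here too the groups overlapped, with knockout animals 2 and 3 on top and knockout animal 4 at the bottom, with a difference of 0.16 (SE 0.26). A second cluster of Fabp3 differed by 0.20. Cd36, the main fatty acid translocase of the cell surface, averaged 9.64 ± 0.41 in knockout and 9.60 ± 0.17 in wild-type muscle (SD, n = 4 each). Slc27a1, the transport protein FATP1, averaged 8.32 ± 0.21 in knockout and 8.35 ± 0.21 in wild-type muscle. Angptl4, a secreted inhibitor of lipoprotein lipase, averaged 5.95 ± 0.21 in knockout and 5.82 ± 0.15 in wild-type muscle.

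The lipases of stored fat act in sequence. Pnpla2 (adipose triglyceride lipase) takes the first acyl chain, Lipe (hormone-sensitive lipase) the next and Mgll (monoacylglycerol lipase) the last. Pnpla2 had 8.57, 8.84, 8.86 and 8.43 in knockout muscle, against 8.67, 8.82, 8.84 and 8.95 in wild-type muscle. Mgll had 6.68, 7.03, 7.10 and 6.80 in knockout muscle, against 6.81, 6.86, 7.20 and 7.46 in wild-type muscle. The groups overlapped for both genes, with differences of -0.14 (SE 0.11) and -0.18 (SE 0.15), and these were the lowest estimates among the 28 genes. Without knockout animal 4 that of Pnpla2 was -0.060, and that of Mgll was -0.27 without wild-type animal 1 and -0.053 without wild-type animal 4. Lipe averaged 6.94 ± 0.16 in knockout and 6.91 ± 0.17 in wild-type muscle.

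In the carnitine shuttle all 4 measured genes had estimates above 0, with a median of 0.18. Cpt1a, the form of carnitine palmitoyltransferase 1 best known from liver, had 6.80, 6.87, 6.84 and 6.84 in knockout muscle, against 6.46, 6.45, 6.76 and 6.78 in wild-type muscle. Every knockout array was above every wild-type array, with knockout values packed within a narrow band (6.84 ± 0.03) and wild-type values in a lower and a higher pair (6.61 ± 0.18). The difference was 0.23 (SE 0.10, 95% interval 0.02 to 0.44), a fold of 1.17, and did not pass after adjustment (adjusted p = 0.861). It was the only 1 of the 28 members whose groups did not overlap, which is near the share of 3.62% over all genes. Cpt2, the inner-membrane transferase that returns the acyl group to CoA, had 8.22, 8.57, 8.51 and 8.13 in knockout muscle, against 7.99, 8.12, 8.10 and 8.33 in wild-type muscle. The groups overlapped through wild-type animal 4 (difference 0.22, SE 0.12). Slc25a20, the carnitine-acylcarnitine carrier, differed by 0.13 (SE 0.13), and Mlycd, which degrades malonyl-CoA, the inhibitor of carnitine palmitoyltransferase 1, by 0.10 (SE 0.08).

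The acyl-CoA dehydrogenases open each cycle, sorted by chain length. Acadvl (very long chains) averaged 7.81 ± 0.34 in knockout and 7.71 ± 0.19 in wild-type muscle. Acadl (long chains) averaged 8.84 ± 0.38 in knockout and 8.85 ± 0.25 in wild-type muscle. Acadm (medium chains) had 10.04, 10.33, 10.33 and 9.85 in knockout muscle, against 9.85, 10.11, 10.12 and 10.19 in wild-type muscle, and its groups overlapped. Acads (short chains) had 7.84, 7.98, 7.92 and 7.70 in knockout muscle, against 7.57, 7.84, 7.88 and 7.87 in wild-type muscle, with wild-type animal 1 apart from the others of its group. The 4 differences lay between -0.02 and 0.11.

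The later reactions of the cycle belong to the trifunctional protein (subunits Hadha and Hadhb), to Hadh, the short-chain 3-hydroxyacyl-CoA dehydrogenase, and to the thiolase Acaa2. Hadha had 9.46, 9.90, 9.95 and 9.45 in knockout muscle, against 9.41, 9.70, 9.69 and 9.78 in wild-type muscle. Hadhb had 9.19, 9.59, 9.67 and 9.16 in knockout muscle, against 9.07, 9.53, 9.37 and 9.46 in wild-type muscle. The subunits followed each other over the 8 arrays (r = 0.971, a description with no test). This was not particular to them, since 96 of the 378 pairs of members stood at 0.9 or above. Hadha was closest to Acadvl (r = 0.993) and Hadhb to Acadl (r = 0.974). The groups overlapped for both subunits, with differences of 0.05 (SE 0.13) and 0.04 (SE 0.14). Acaa2 had 9.25, 9.87, 9.98 and 8.87 in knockout muscle, against 9.13, 9.28, 9.42 and 9.47 in wild-type muscle. The knockout group again held the extremes at both ends, and the difference was 0.17 (SE 0.21), with 0.00602 without knockout animal 3 and 0.38 without knockout animal 4. Hadh differed by 0.06 (SE 0.14).

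Unsaturated chains need auxiliary enzymes, the isomerases Eci1 and Eci2 and the reductase Decr1. Eci1 averaged 8.29 ± 0.21 in knockout and 8.16 ± 0.16 in wild-type muscle. Eci2 averaged 7.09 ± 0.20 in knockout and 6.95 ± 0.22 in wild-type muscle. Decr1 averaged 8.34 ± 0.20 in knockout and 8.25 ± 0.19 in wild-type muscle. The electron transfer flavoprotein (Etfa and Etfb) and its dehydrogenase Etfdh differed by 0.01 (SE 0.12), 0.07 (SE 0.11) and 0.12 (SE 0.13). The groups overlapped for all of these genes. Ucp3, the uncoupling protein of skeletal muscle, had 9.24, 9.17, 9.45 and 9.30 in knockout muscle, against 9.17, 9.25, 9.00 and 9.13 in wild-type muscle. Knockout animals 1 and 2 lay below wild-type animal 2, so that the groups overlapped (difference 0.15, SE 0.09, adjusted p = 0.876). Acot2, a mitochondrial acyl-CoA thioesterase, averaged 8.86 ± 0.39 in knockout and 8.87 ± 0.17 in wild-type muscle.

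**Figure D2:**
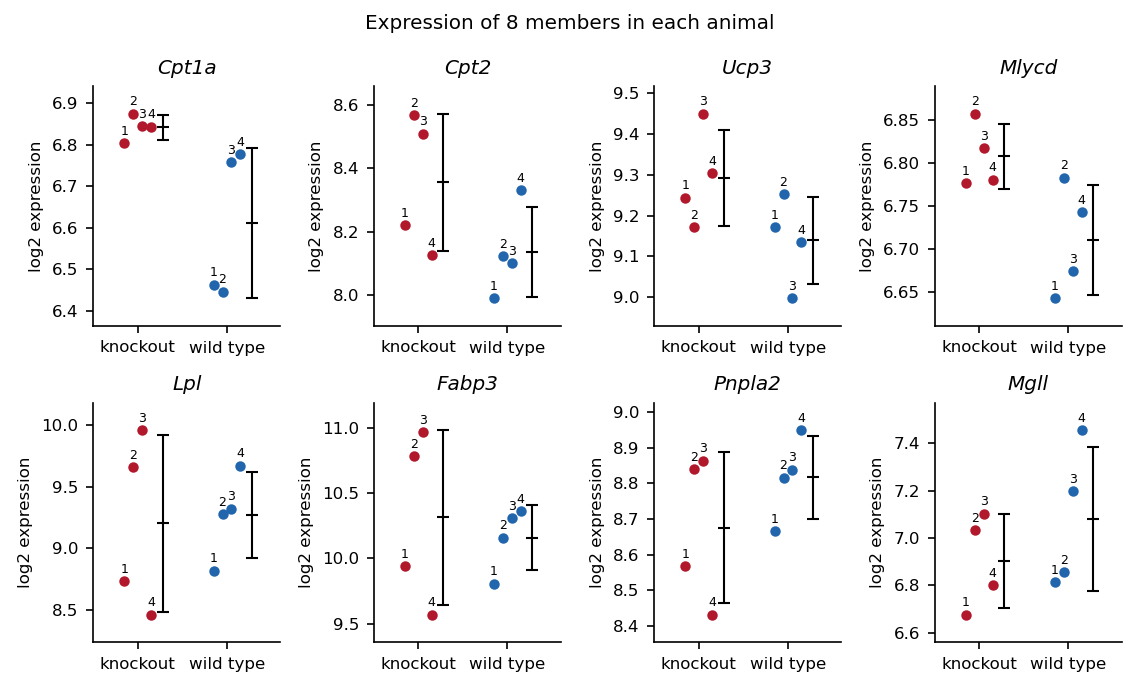
Log2 expression (vertical axes) of 8 members in each animal, knockout left of wild type, with 1 numbered point per animal and a bar for the mean ± SD of the 4. Cpt1a shows no overlap between the groups, while in Lpl and Fabp3 the knockout points reach above and below all wild-type points.

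Animals of the same genotype differed from each other. The SD of a member within genotypes had a median of 0.21, against 0.15 over all genes. The members' genotype differences ran from -0.18 to 0.23. The median range of a member over the 8 arrays, which includes any genotype difference, was 0.556, against 0.453 over all genes. The highest array of Lpl exceeded its lowest 2.83-fold, that of Fabp3 2.63-fold and that of Acaa2 2.16-fold. Knockout animal 3 was the highest array in 19 of the 28 genes, knockout animal 2 in 6 and wild-type animal 4 in 3. Wild-type animal 1 was the lowest in 11 and knockout animal 4 in 10. Of the 28 genes, 28 lay above their own mean in knockout animal 3, 27 in animal 2 and 5 each in animals 1 and 4, against 1, 16, 17 and 23 in wild-type animals 1 to 4. The list mean was 8.31, 8.66, 8.74 and 8.23 in knockout arrays and 8.22, 8.44, 8.45 and 8.56 in wild-type arrays. Knockout animals 2 and 3 were above all wild-type animals in this mean, knockout animals 1 and 4 were below wild-type animals 2 to 4, and wild-type animal 1 was the lowest. The mean of the 10 capillary endothelium markers was 7.18, 7.64, 7.48 and 7.21 in knockout and 7.25, 7.35, 7.47 and 7.598 in wild-type arrays, lowest in the same 3 animals (knockout 1 and 4 and wild-type 1). The mean of the 10 muscle fibre markers was 11.79, 12.05, 12.05 and 11.60 in knockout and 11.87, 12.01, 12.02 and 12.004 in wild-type arrays, and these 3 animals were again the lowest. In knockout 1 and 4 and wild-type 1, Myh2 (10.12, 9.03 and 10.49) and Mb (11.10, 10.60 and 11.18) had their lowest values. Other genes of that list were not low there: Ckm had 12.68, 12.68 and 12.66, and Myh4 had 12.28, 12.27 and 12.29. The part of these markers in the pattern was not tested.

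**Figure D3:**
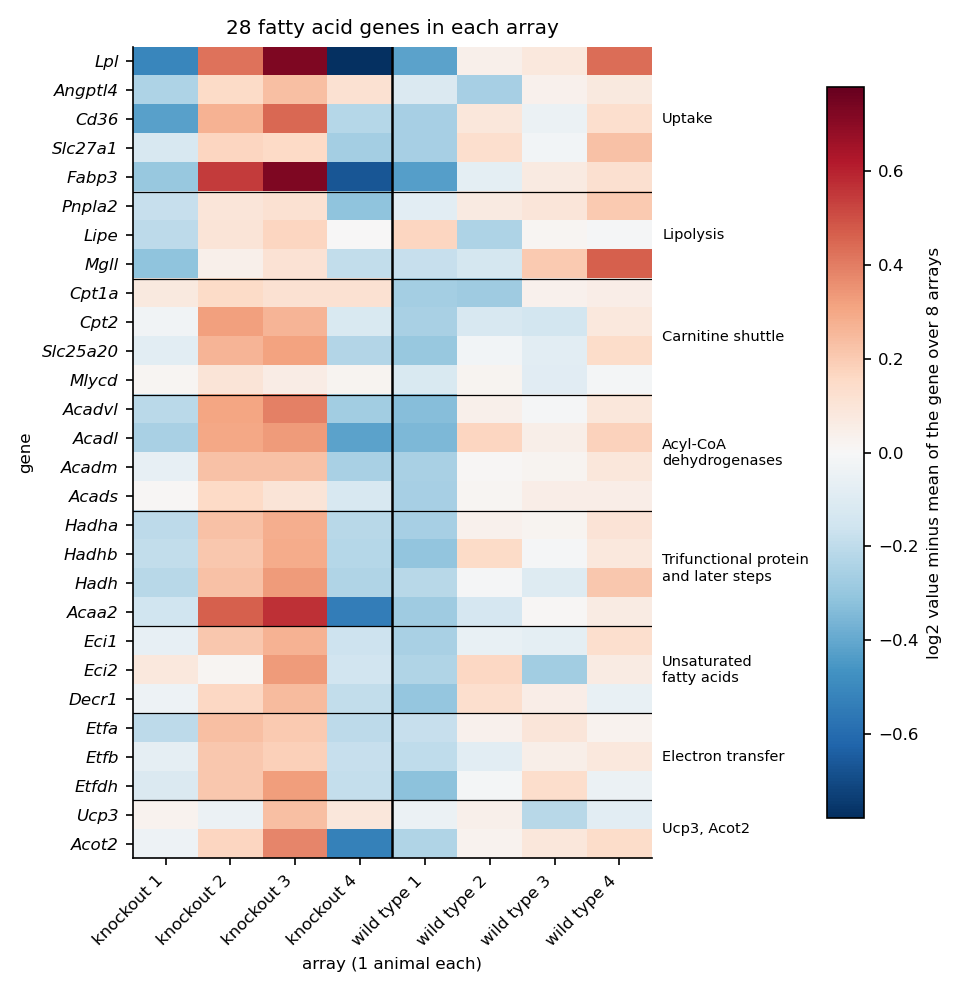
Log2 value of each member minus its mean over the 8 arrays (colour), genes by step down the page and arrays across, knockout left of wild type. The columns of knockout animals 2 and 3 are above the mean in 27 and 28 of the 28 genes, and those of knockout animals 1 and 4 and of wild-type animal 1 are mostly below it.

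The members moved together over the animals. Among the 378 pairs of members the median Pearson r over the 8 arrays was 0.766 and the mean 0.661, against a mean of 0.00415 over all pairs of genes, and 369 pairs were above 0. These are descriptions with no test, and the arrays share their normalization. Pairs at 0.9 or above numbered 96, with the closest pair Slc25a20 and Eci1 (r = 0.994). The genes whose median r with the other members was under 0.6 were Ucp3 (0.157), Lipe (0.235), Cpt1a (0.353), Angptl4 (0.533), Mlycd (0.543), Mgll (0.568) and Eci2 (0.598). Cpt1a, the only member whose groups did not overlap, was among those least tied to the rest.

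Myh7, the slow myosin heavy chain, marks the share of slow fibres in a piece of muscle. It had 7.48, 8.81, 9.24 and 5.21 in knockout muscle, against 6.13, 8.92, 5.33 and 8.36 in wild-type muscle. Both groups spanned low and high values, and the genotype difference of 0.50 (SE 0.88) was far smaller than the spread between animals. The mean of the 11 slow-fibre markers ran from 5.94 to 9.08 in knockout and from 6.78 to 8.52 in wild-type arrays. The relation of the members to Myh7 was fitted as a slope, the log2 change of a gene per log2 unit of Myh7, with genotype as a term so that it rests on animals within each genotype.

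None of the 28 slopes passed limma's adjusted threshold (lowest adjusted p = 0.713), where 0.0351% of all genes did (7 of 19937). Those 7 were Tnnc1, Tnni1, Tnnt1, Atp2a2, Myl3, Tecrl and Tpm3, most of them known components of slow muscle. Slopes above 0 were estimated for 25 members, against 50.5% of all genes. At an unadjusted p under 0.05 stood 18 members, all with slopes above 0, against 5.96% of all genes, 3.05% with slopes above 0. Since the members moved together (median r of 0.766 between pairs), this and the counts below are not counts of independent results. The median slope was 0.08 over the members and 0.000518 over all genes. Lpl had the steepest, 0.24 (SE 0.07), followed by Fabp3 at 0.20 (SE 0.06), Acaa2 at 0.15 (SE 0.05) and Acadl at 0.14 (SE 0.04). Without knockout animal 4 the slope was 0.13 for Fabp3 and 0.080 for Acaa2. Lipe (-0.01, SE 0.04), Cpt1a (-0.01, SE 0.03) and Angptl4 (-0.00, SE 0.04) had slopes at or just under 0. By step, all 4 of the hydratase, dehydrogenase and thiolase genes and all 3 of the auxiliary genes were under 0.05 unadjusted, as were 4 of 5 in uptake, 3 of 4 acyl-CoA dehydrogenases, 2 of 4 in the carnitine shuttle, 1 of 3 lipases, 1 of the pair Ucp3 and Acot2 (Acot2), and 0 of 3 for the electron transfer flavoprotein.

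Over the 8 arrays without a term for genotype, the median Pearson r with Myh7 was 0.718 for the members and -0.00444 for all genes, and 27 members were above 0 where 49.6% of all genes were. By exact two-sided permutation of the pairings, 11 members had an unadjusted p under 0.05 by Pearson's r and 13 by Spearman's rho, against 4.05% and 4.07% of all genes. None passed after adjustment over 19937 genes (lowest adjusted p 0.997 and 1.0). Over all genes 0 passed as well (lowest adjusted p by exact permutation 0.247 and 0.494). With 8 arrays no p falls below 2.48e-05, so a single gene cannot pass this adjustment alone, and the members' failure to pass says little. Eci2 had the highest coefficient (r = 0.89, exact permutation p = 0.00419, rho = 0.83, exact permutation p = 0.0154). Without knockout animal 4 and wild-type animal 3, the arrays farthest from the median of Myh7, its r was 0.86. In those 6 arrays the median r of the members was 0.842, with 27 above 0, against 48.7% of all genes. Within a genotype 4 arrays are too few for a coefficient. Wild-type animal 3 went against the trend in most members: its Myh7 was 5.33, yet 17 of the 28 genes lay above their own mean.

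With Myh7 held as a covariate, the genotype difference of the members had a median of 0.0463 with 19 of 28 above 0, and 0 of 28 passed, where 0.0351% of all genes did. Cpt1a kept an estimate of 0.23 (SE 0.10). Fabp3 was at 0.05 (SE 0.20) and Lpl at -0.19 (SE 0.21).

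Myh2, the heavy chain of fast oxidative (type IIA) fibres, was tried as the covariate after the values had been seen, since wild-type animal 3 was low in Myh7 and not in Myh2. The limma p-values for Myh2 take no account of this choice, so they are descriptions and not a test planned in advance. Myh2 had 10.12, 11.52, 11.46 and 9.03 in knockout muscle, against 10.49, 10.93, 11.38 and 11.29 in wild-type muscle, lowest in knockout animal 4. The slope on Myh2 passed the adjusted threshold in limma for 3 members, all with slopes above 0, where 0.286% of all genes passed (57 of 19937). These were Fabp3 with 0.55 (SE 0.06, adjusted p = 0.00267), Acaa2 with 0.43 (SE 0.05, adjusted p = 0.0051) and Lpl with 0.60 (SE 0.08, adjusted p = 0.0118). Slopes above 0 were estimated for 27 of the 28, against 48.1% of all genes, and 21 had an unadjusted p under 0.05, against 6.28%. The calls rested on knockout animal 4: without it 0 members passed (adjusted p = 0.0683 for Fabp3, 0.261 for Acaa2 and 0.105 for Lpl). Without knockout animal 3 only Fabp3 passed (adjusted p = 0.0742 for Acaa2 and 0.126 for Lpl), and without knockout animal 2 Lpl was lost (adjusted p = 0.0505). With Myh2 held as a covariate the genotype difference was above 0 in 26 of the 28, against 45.2% of all genes. Its median was 0.171, against 0.07 without the covariate. At an unadjusted p under 0.05 stood 8 of the 28, against 5.33% of all genes, and 0 passed the adjusted threshold (lowest adjusted p = 0.453). Myh2 itself was estimated lower in knockout muscle (difference -0.49, SE 0.45). Where slopes on Myh2 are above 0, holding it as a covariate therefore raises the estimated differences by construction. The covariate fit was not repeated without single arrays.

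**Figure D4:**
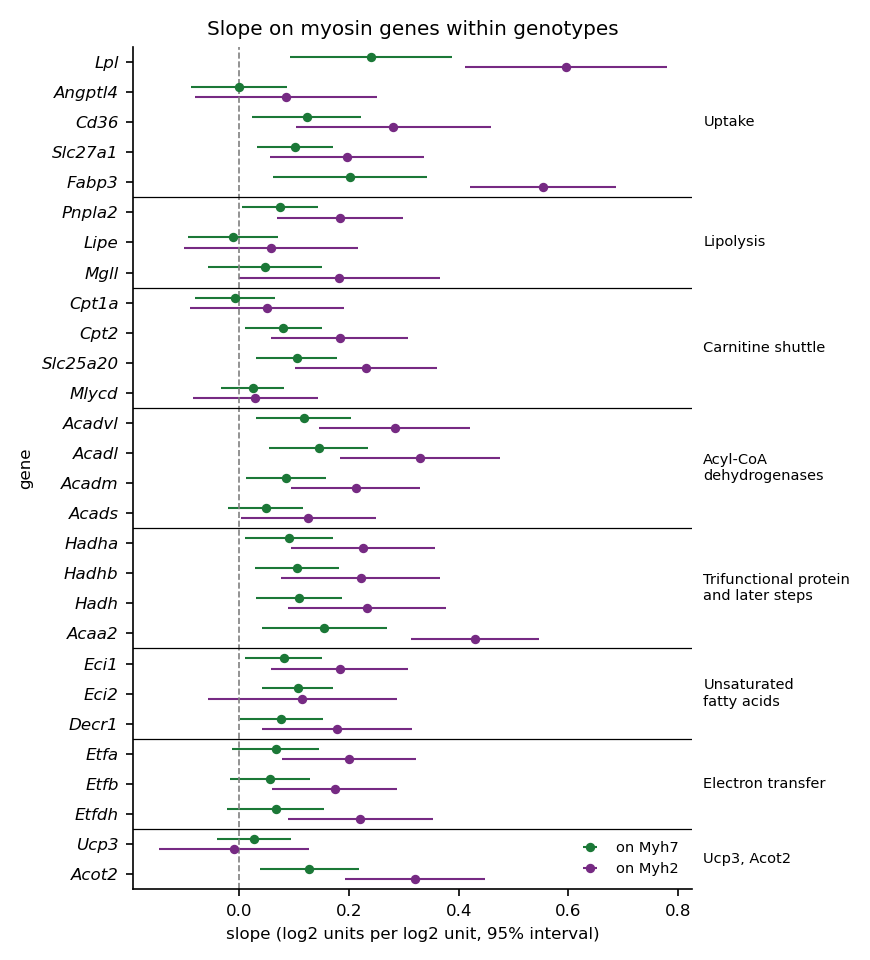
Slope of each of the 28 genes, in log2 units per log2 unit with genotype as a term (horizontal axis), as a point with its 95% confidence interval, grouped by step, with green for Myh7 and purple for Myh2. The slopes on Myh7 run from -0.01 to 0.24, with 25 of the 28 above 0, and those on Myh2 are steepest for Lpl (0.60), Fabp3 (0.55) and Acaa2 (0.43).

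**Figure D5:**
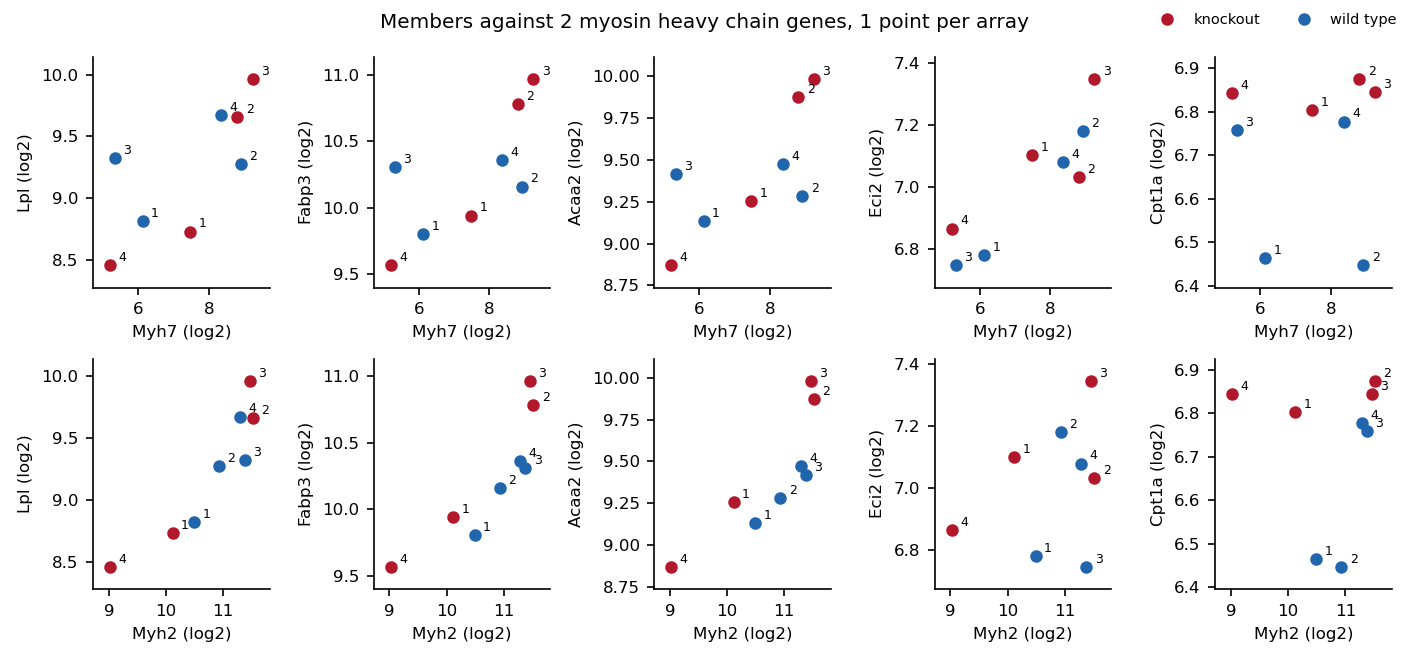
Log2 expression of 5 members (vertical axes) against that of Myh7 (upper panels) and Myh2 (lower panels) in the 8 arrays, knockout in red and wild type in blue, with the number of the animal beside its point. Against Myh7, Lpl and Fabp3 have r of 0.72 each and Cpt1a has 0.03, and against Myh2 knockout animal 4 is the lowest point of Lpl, Fabp3 and Acaa2.

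Other genes of the pathway were taken from 7 lists, of which 107 of 112 genes were measured. None passed in limma in either direction, 48 were estimated higher and 59 lower, where 45.3% of all genes were higher, and 5 had an unadjusted p under 0.05, near the 5.73% of all genes. The groups did not overlap for 7 of the 107, against 3.62% of all genes. Of the droplet genes, 8 of 14 were estimated higher, and the smallest p belonged to Plin3, which coats lipid droplets. Plin3 had 7.33, 7.37, 7.49 and 7.19 in knockout muscle, against 6.81, 6.89, 6.57 and 6.61 in wild-type muscle. All knockout arrays were above all wild-type arrays, with a difference of 0.62 (SE 0.10, adjusted p = 0.0674) that missed the threshold. It passed where the dimmer 50% of genes were left out (adjusted p = 0.0389) and with an intensity trend and robust prior (adjusted p = 0.0312), and without single arrays its adjusted p ran from 0.111 to 0.346. Plin5, the droplet protein of oxidative tissues, differed by 0.36 (SE 0.18), and by 0.17 without wild-type animal 2, its lowest array (4.95). All 10 listed genes around malonyl-CoA and carnitine were estimated lower (median -0.13, adjusted p from 0.869), where 54.7% of all genes were. This list held the kinase subunit genes Prkaa1, Prkaa2, Prkab2 and Prkag3. It left out the members of the carnitine shuttle, and all 4 of those measured were estimated higher (median 0.18). The 10 are therefore not the whole of this step. Their count of lower estimates was 8 to 10 with single arrays left out (8 without knockout animal 2 or without wild-type animal 2). It was 9 after quantile normalization, cyclic loess or array weights, a recount added after seeing the data. Among the 10 was Acacb, the acetyl-CoA carboxylase of the mitochondrial surface. Acacb had 8.85, 8.88, 8.87 and 8.76 in knockout muscle, against 8.89, 9.08, 8.96 and 9.14 in wild-type muscle, with no overlap (difference -0.18, SE 0.09). Acaca, its cytosolic counterpart, differed by -0.23 (SE 0.12), and by -0.34 without wild-type animal 1 and -0.13 without wild-type animal 4.

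In the remaining lists the estimates went both ways. Uptake and activation had 3 of 13 higher, with Acsl4, an acyl-CoA synthetase, at -0.29 (SE 0.11) without overlap and the lipoprotein receptor Vldlr at -0.20 (SE 0.13). The Vldlr difference was -0.10 without wild-type animal 1. Other mitochondrial oxidation had 11 of 21 higher, with the thioesterase Acot13 at 0.17 (SE 0.08) and the propionyl-CoA carboxylase subunit Pcca at -0.14 (SE 0.09). Peroxisomal oxidation had 11 of 18 higher, with the multifunctional enzyme Hsd17b4 at 0.19 (SE 0.09) and the transporter Abcd3 at 0.16 (SE 0.08). Triacylglycerol synthesis had 7 of 13 higher, with the acyltransferases Dgat1 at -0.15 (SE 0.09) and Agpat1 at -0.16 (SE 0.10), the second at -0.10 without wild-type animal 2. Of the regulators 8 of 18 were estimated higher. Nrip1, a corepressor of oxidative genes, had 7.35, 7.20, 7.29 and 7.18 in knockout muscle, against 7.58, 7.62, 7.39 and 7.46 in wild-type muscle. Its groups did not overlap (difference -0.26, SE 0.09, adjusted p = 0.836). Nr4a3, an inducible nuclear receptor, differed by -0.71 (SE 0.28), with wild-type animal 3 at 7.14 and animal 4 at 6.49 and all other arrays between 5.23 and 5.76. It differed by -0.41 without wild-type animal 3. Slopes on Myh7 were above 0 for 82 of the 107 genes, against 50.5% of all genes, and 0 passed, with 13 under 0.05 unadjusted, against 5.96%.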

How the data were processed

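Log2 expression values of 8 arrays (4 knockout and 4 wild-type animals) were taken as the authors deposited them. Per the submitters' processing notes, Affymetrix Expression Console and RMA produced them; settings and genome build are not given in the sources used here. Of 35556 transcript clusters, 21789 were annotated to 1 symbol, 1621 to several and 12146 were unnamed; 999 genes with several clusters were represented by the brightest, giving 19938 genes, dim ones included. The number of arrays limits the precision, and p-values cover the spread between animals.

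Genotypes were compared, and slopes on Myh7 fitted with genotype as a term, in limma 3.58.1 (lmFit, eBayes; R 4.3.3), adjusted by Benjamini-Hochberg over all genes at 0.05. Differences are knockout minus wild type. Pearson and Spearman coefficients were tested over all 40320 pairings, which give no p below 2.48e-05. The scripts were tested on simulated data. The members, gene lists and rules for named genes (all members, Kat2a and Myh7, and the 2 genes of each other list with the smallest p) were chosen with earlier results of these data known. Myh2, Myh4, Mb, Ckm, Adipoq, Ucp1 and the genes called on Myh7 fall outside that rule and were named after their values were seen. Upstream bases came from a RefSeq promoter table of GRCm38.p6, without its bases after the start. Alternatives covered normalization, dim genes, clusters, priors, array weights, covariates, single arrays and a replicate block.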

Additional observations from a re-analysis of the deposited data

Results flagged for a closer look

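Acads lay between 7.70 and 7.98 in the knockout animals, and in wild-type animal 1 it had a log2 value of 7.57, below the other wild-type animals at 7.84 to 7.88. The gap within the wild-type group was 0.879 of the range of the group, above Dixon's 95% critical value for 4 samples. It was the only one of the 60 groups of values tested that stood out in this way, where chance gives about 1 in 20.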

How the results depend on the processing

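None of the 28 genes passed the genotype test or the slope on Myh7 under any alternative run for them. The replicate block cannot move a difference in this balanced design (median 0.0724), and with it 0 members were called. The lowest adjusted p by limma was 0.453 for the genotype difference and 0.104 for the slope. Among the single-array omissions 188 of 224 genotype estimates kept their sign, and among the other settings 312 of 336. Leaving out dim genes, the intensity trend with robust prior, the threshold of 0.10 and the replicate block cannot change an estimate. Their estimates are among the 336, so that part of the agreement was fixed in advance. The cause of the reversals was not tested. Leaving out 1 array changed the sign or moved the value by over 1.5 times for 25 of the 28 genotype differences, 13 of the 28 slopes on Myh7 and 9 of the 28 slopes on Myh2, and for 5 of the 15 genotype differences named outside the members.

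Genotype differences that changed sign lay near 0 after the other normalizations and with Myh7 as a covariate. In other settings they lay farther from 0, up to 0.22 for Lpl with Myh2 as a covariate. After quantile normalization they were 0.0058 for Slc27a1, 0.018 for Acadl and 0.027 for Acot2, after cyclic loess 0.00434 for Slc27a1, 0.021 for Acadl and 0.029 for Acot2, and after median centring -0.00122 for Etfa. With array weights they were 0.063 for Lpl, 0.058 for Slc27a1, -0.041 for Lipe, 0.098 for Acadl and 0.067 for Acot2. Without wild-type animal 2 and knockout animal 4 together they were 0.18 for Lpl, 0.083 for Slc27a1, -0.037 for Lipe, 0.17 for Acadl and 0.17 for Acot2. With Myh7 as a covariate they were -0.020 for Cd36, -0.00788 for Hadhb and -0.019 for Etfa, and with Myh2 as a covariate 0.22 for Lpl, 0.060 for Slc27a1, 0.14 for Acadl and 0.15 for Acot2. Leaving out single arrays gave ranges of -0.32 to 0.18 for Lpl, -0.10 to 0.19 for Cd36, -0.13 to 0.046 for Slc27a1, -0.061 to 0.40 for Fabp3, -0.042 to 0.11 for Lipe, -0.00522 to 0.21 for Acadvl, -0.14 to 0.12 for Acadl, -0.00662 to 0.16 for Acadm, -0.00323 to 0.12 for Acads, -0.040 to 0.13 for Hadha, -0.051 to 0.13 for Hadhb, -0.043 to 0.14 for Hadh, -0.061 to 0.085 for Etfa and -0.14 to 0.16 for Acot2.

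Slopes on Myh7 changed sign for 3 genes. Angptl4 was at 0.00696 after median centring, 0.032 with array weights, 0.092 without wild-type animal 2 and knockout animal 4, 0.00607 without genotype and 0.021 on the mean of slow-fibre markers. Cpt1a was at 0.011 with array weights, 0.034 without those 2 animals, 0.00358 without genotype and 0.00807 on the slow-fibre mean. Lipe was at 0.012 with array weights and 0.037 without those 2 animals. Leaving out single arrays gave -0.024 to 0.029 for Angptl4, -0.034 to 0.020 for Lipe and -0.025 to 0.015 for Cpt1a. The slope of Ucp3 on Myh2 was 0.00479 after quantile normalization, 0.016 after cyclic loess and -0.068 to 0.031 without single arrays. Members called on Myh2 numbered 5 after quantile normalization or cyclic loess (with Acadl and Acot2), 0 without wild-type animal 2 and knockout animal 4, and 0 to 3 without single arrays.

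Over all genes the genotype calls numbered 3, against 13 without the dimmer 50% of genes, 17 with an intensity trend and robust prior, 16 at a threshold of 0.10, 7 with Myh7 as a covariate, 2 after quantile normalization or cyclic loess, 3 with Myh2 as a covariate, 1 without the 2 animals, 0 with the replicate block and 0 to 5 without single arrays. Slope calls on Myh7 numbered 7, against 11 after median centring, 2 without the 2 animals or on the slow-fibre mean, and 7 to 20 without single arrays, highest without wild-type animal 3. Slope calls on Myh2 numbered 57, against 12 without the 2 animals and 8 to 62 without single arrays. Kat2a lost its call with the replicate block (adjusted p = 0.113) and without the 2 animals (adjusted p = 0.135). The sample titles do not say whether animals with the same replicate number form a pair, and the values do not settle it. Deviations of animals with the same number correlated at 0.0939, 0.0655, 0.222 and -0.103 across genes. Those of animals with different numbers correlated at -0.234 to 0.122. Of the 4 knockout animals, 2 correlated best with the wild-type animal of their own number, a count that unrelated numbers can give too.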
